A study of Mus musculus with 9 samples.

Results

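Mitochondrial ribosomal protein genes were taken as the genes whose annotated symbol begins with Mrpl (large subunit) or Mrps (small subunit) followed by a digit, leaving out pseudogenes. The rule found 78 genes among the 19087 named genes on the array, measured by 132 array features. All 78 protein-coding mouse genes that RefSeq lists under such symbols were measured. Of these, 37 had several features, which were averaged, and 41 had 1.

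The RNA came from cerebella of mice of the SmoA1 strain, which the labels call a medulloblastoma strain and which carries an activated Smoothened, at postnatal day 20. On 4 arrays the animals were Pycard knockout (KO 1 to KO 4) and on 5 arrays Pycard wild-type (WT 1 to WT 5), and SmoA1 is common to both. Pycard encodes ASC, the adaptor protein of inflammasomes. Every array carried the cerebellar sample in Cy5 and, in Cy3, a common reference pooled from wildtype cerebella at postnatal day 16. No array had its dyes exchanged, and whether the arrays hold separate animals is not stated. The p-values therefore reflect only the variation among these 9 arrays, some of which may be technical. The labels name neither the promoter that drives the SmoA1 transgene nor the form of the Pycard allele. Each value below is a log2 ratio of sample over pool, so 0 means the level of the pool and a value of 1 a doubled level.

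The mitochondrial ribosome sits in the mitochondrial matrix and translates the small set of messenger RNAs made from mitochondrial DNA, all of which encode subunits of the oxidative phosphorylation complexes. Its ribosomal RNAs are made in the mitochondrion, but every one of its proteins is encoded in the nucleus, made in the cytosol and imported. Some of these proteins descend from bacterial ribosomal proteins, and others were added in the mitochondrial lineage. In the growing cerebellum, granule neuron progenitors divide under Sonic hedgehog signalling, which SmoA1 activates, and later mature into neurons.

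Pycard itself was measured first as a check of the labels. Its ratio was -2.83, -2.43, -1.48 and -2.83 on KO 1 to KO 4, against 0.90, 1.17, 0.72, 1.28 and 1.32 on WT 1 to WT 5. Every KO array lay below every WT array, and the difference was -3.47 (SE 0.29, limma adjusted p = 0.0131). With the replicate number as a block the difference was -3.41 (adjusted p = 0.751). Without single arrays it ran from -3.78 to -3.33, with the adjusted p under the threshold only without KO 3 (0.00203) or WT 3 (0.0459). Array medians over all features lay between 0 and 0.013, while the SD over features ran from 0.552 on KO 1 to 1.12 on WT 4. The titles come in 2 styles, with letters on KO 1 to KO 3 and WT 1 to WT 3 and with numbers on KO 4, WT 4 and WT 5. What the styles mark is not stated, and exact zeros made up 1.07% to 3.49% of the features on letter-titled arrays and 6.52% to 7.35% on number-titled arrays. A single value of the 78 genes was an exact 0.

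The first question was whether loss of Pycard changed the mitochondrial ribosomal protein genes. None of the 78 genes passed the test between KO and WT, on a background of 0.0163% of all 30654 values called by limma with Benjamini-Hochberg adjusted p under 0.05. None of the 78 reached an unadjusted p under 0.05 either, which 5.4% of all values did. The mean over the 78 genes was 0.13, 0.11, 0.17 and 0.12 on KO 1 to KO 4, against 0.14, 0.19, 0.15, 0.16 and 0.13 on WT 1 to WT 5. The arrays of the groups overlapped: the lowest array was KO 2 and the highest WT 2. The mean was 0.13 ± 0.03 in KO and 0.15 ± 0.02 in WT (SD over arrays, n = 4 and 5), a fold over the pool of 1.10 in KO and 1.11 in WT. The difference was -0.021 (95% interval -0.058 to 0.017), and it changed sign with quantile or scale normalization. Within the letter-titled arrays it was -0.021 and within the number-titled arrays -0.024, where KO has a single array. In RNA of whole tissue, fewer cells of a type and less RNA per cell cannot be told apart.

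**Figure D1:**
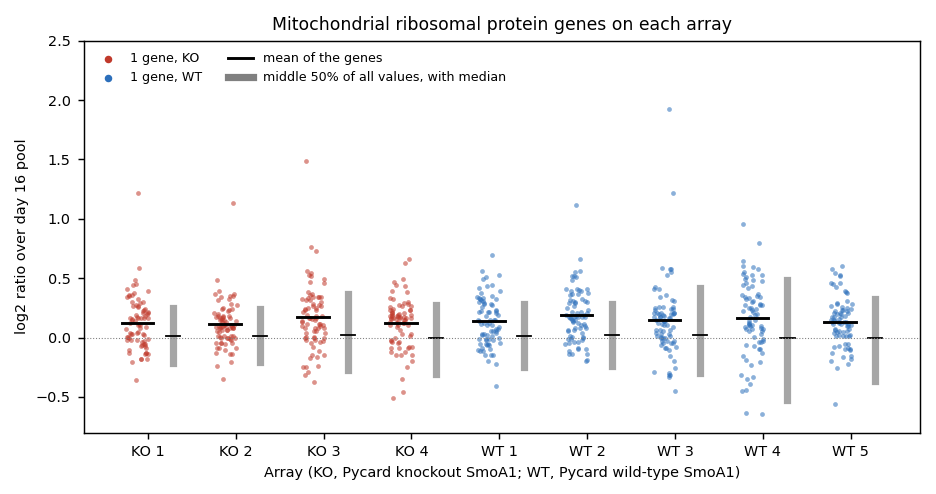
Log2 ratio over the pool of the 78 mitochondrial ribosomal protein genes on each array, KO arrays left of WT arrays; each point is a gene, the black line the mean over the genes, and the grey bar the middle 50% of all values with their median. The means run from 0.11 to 0.17 on the KO arrays and from 0.13 to 0.19 on the WT arrays.

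The gene-by-gene differences were small as well as uncalled. They ranged from -0.21 for Mrpl15 to 0.22 for Mrpl33. The median size of a difference was 0.063, against 0.18 over all values and 0.16 over named genes. The median SE was also smaller, at 0.11, against 0.23 over all values and 0.20 over named genes. The sizes and interval widths were thus not compared with values of like precision. For 71 of the 78 genes (91%), the 95% interval of the difference lay wholly within -0.5 and 0.5, a change of 1.41-fold either way. Over all values 25.9% had such an interval. The other 7 were Mrps17, Mrpl15, Mrpl57, Mrpl30, Mrps9, Mrpl33 and Mrpl46, whose intervals reach further and do not exclude a change of that size. The widest belonged to Mrps17 (SE 0.36). The difference was below 0 for 53 of the 78 genes (67.9%), while 47.8% of all values were below 0, and the median was -0.023 for the genes and 0.0079 over all values. These genes share their arrays, so this count is a description of the 9 arrays.

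The groups stood fully apart for a single gene. Mrpl28, a protein of the large subunit, had 0.04, 0.13, 0.10 and 0.18 on KO 1 to KO 4, against 0.23, 0.31, 0.20, 0.48 and 0.23 on WT 1 to WT 5. All KO values were below all WT values, by as little as 0.02 between KO 4 and WT 3. The difference was -0.18 (SE 0.09, unadjusted p = 0.0897, limma adjusted p = 0.919), the smallest p among the 78 genes. These values average 2 features, and the groups overlapped on 1 of them. There KO 4, at 0.25, lay above WT 1, WT 2, WT 3 and WT 5, which ran from 0.09 to 0.21. On the other feature every KO array lay below every WT array. Genes with KO fully below WT made up 0.946% of all values and 1.28% of the 78, and no gene had KO fully above WT, which 0.796% of all values had.

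The genes next in order on the lower side, Mrpl24, Mrpl11, Mrpl15 and Mrpl32, belonged to the large subunit too. None of them passed the test. Mrpl24, homologous to a bacterial protein at the rim of the polypeptide exit tunnel, averaged 0.15 ± 0.06 in KO and 0.29 ± 0.07 in WT (SD, n = 4 and 5), a difference of -0.14 (SE 0.08). Mrpl11, of the region where translation factors hydrolyse GTP, had -0.05, 0.18, 0.46 and 0.19 in KO, against 0.33, 0.36, 0.26, 0.53 and 0.46 in WT. Only KO 1, KO 2 and KO 4 lay below all WT values, since KO 3 reached the WT range. Mrpl15 averaged 0.32 ± 0.26 in KO and 0.53 ± 0.26 in WT, with overlapping values. Mrpl32, whose maturation by the matrix AAA protease is known to gate ribosome assembly, averaged 0.21 ± 0.05 in KO and 0.34 ± 0.20 in WT. On the higher side stood Mrps26, Mrps14, Mrpl58, Mrpl46 and Mrps12, again with none called. Mrps12, a protein of the decoding centre, had 0.07, 0.11, -0.02 and 0.26 in KO, against -0.15, -0.20, -0.30, 0.22 and 0.07 in WT. Mrpl58, a release-factor-like protein that frees peptides from stalled ribosomes, averaged 0.23 ± 0.12 in KO and 0.09 ± 0.11 in WT, with overlapping values. The adjusted p of these genes ran from 0.932 to 0.948.

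**Figure D2:**
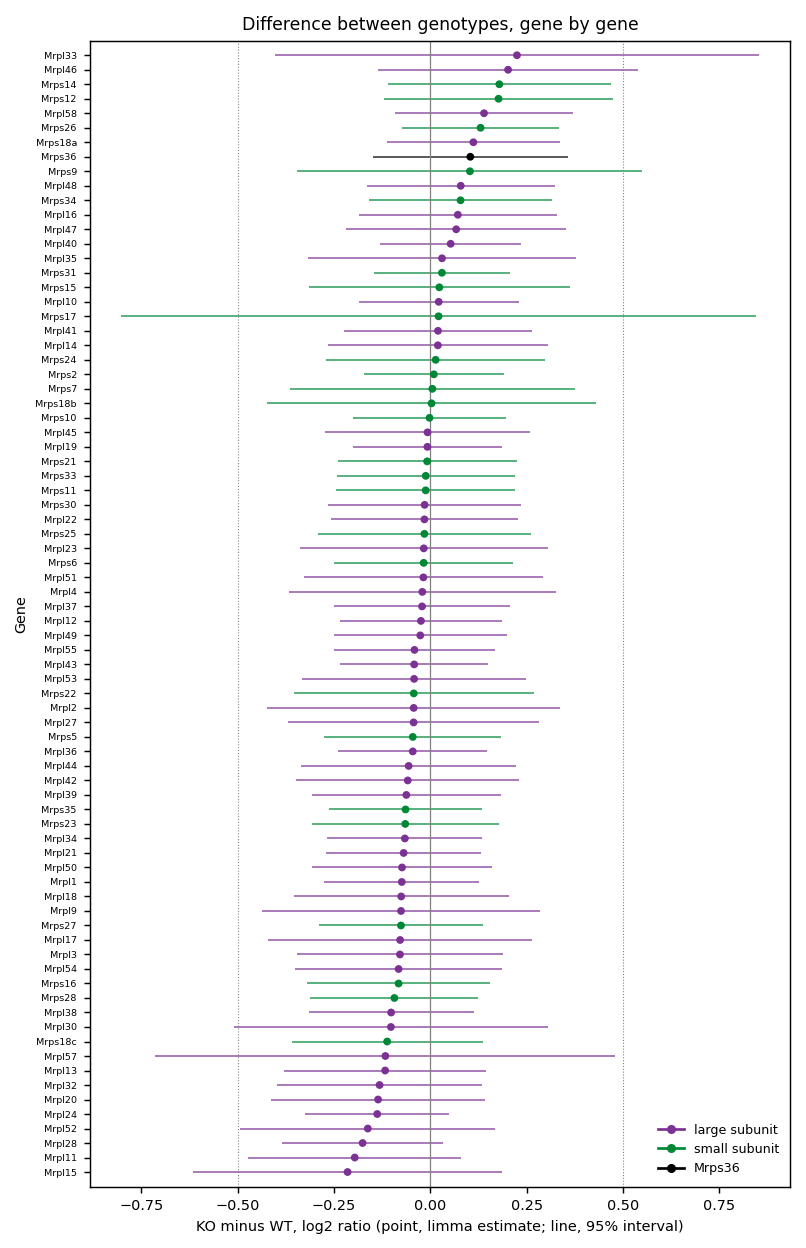
KO minus WT difference in log2 ratio of each of the 78 genes with its 95% interval from limma, ordered by size and coloured by subunit; dotted lines mark -0.5 and 0.5. Every interval includes 0, and 71 of 78 lie within -0.5 and 0.5.

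Grouped by subunit and descent, the means of KO and WT stayed close in every class. The 30 large-subunit proteins with bacterial relatives averaged 0.16 ± 0.03 in KO and 0.21 ± 0.05 in WT, and 23 of the 30 had a difference below 0. The 21 large-subunit proteins added in mitochondria averaged 0.11 ± 0.02 in KO and 0.13 ± 0.04 in WT, with 16 below 0. For the 17 conserved small-subunit proteins the means were 0.15 ± 0.08 in KO and 0.14 ± 0.08 in WT, with 8 below 0, and for the 9 mitochondrial additions to the small subunit 0.07 ± 0.01 in KO and 0.07 ± 0.05 in WT, with 6 below 0. Over the large subunit, 39 of 51 differences were below 0 (median -0.043), and over the small subunit 14 of 26 (median -0.0053). Whether the subunits differ was not tested. Mrps18a and Mrps30 are counted with the large subunit, where they are known to sit despite their names. Mrps36, now regarded as a component of the 2-oxoglutarate dehydrogenase complex, was left out of the classes.

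Members with well-described functions were likewise not called between KO and WT. Mrpl12, the stalk protein that recruits translation factors and is also known to bind the mitochondrial RNA polymerase, had -0.07, 0.08, -0.02 and 0.18 in KO, against 0.07, 0.06, -0.03, 0.20 and 0.05 in WT. Mrpl10, which anchors the stalk, averaged 0.14 ± 0.10 in KO and 0.12 ± 0.09 in WT. At the site of peptide bond formation, Mrpl2 averaged 0.23 ± 0.29 in KO and 0.28 ± 0.21 in WT, and Mrpl3 averaged -0.04 ± 0.16 in KO and 0.04 ± 0.15 in WT. All 4 genes had overlapping groups. Mrpl44, which carries a ribonuclease III fold, averaged -0.02 ± 0.18 in KO and 0.03 ± 0.15 in WT. Mrpl45, which holds the ribosome to the inner membrane near the tunnel exit, averaged 0.03 ± 0.08 in KO and 0.03 ± 0.19 in WT, and WT 4 at 0.36 stood apart from the other WT arrays.

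Paralogous members were uncalled between KO and WT as well. Mrps18a, Mrps18b and Mrps18c are 3 paralogs of 1 bacterial protein. Mrps18a averaged 0.24 ± 0.07 in KO and 0.12 ± 0.13 in WT, and Mrps18c averaged 0.10 ± 0.18 in KO and 0.21 ± 0.08 in WT. Mrps18b averaged -0.08 ± 0.29 in KO and -0.09 ± 0.28 in WT, but its 3 features did not agree. Mrpl37 and Mrps30, another pair of related proteins, averaged -0.04 ± 0.09 and 0.22 ± 0.17 in KO, and -0.02 ± 0.13 and 0.23 ± 0.10 in WT. These are ratios over the pool for each probe and give no order of levels between genes.

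**Figure D3:**
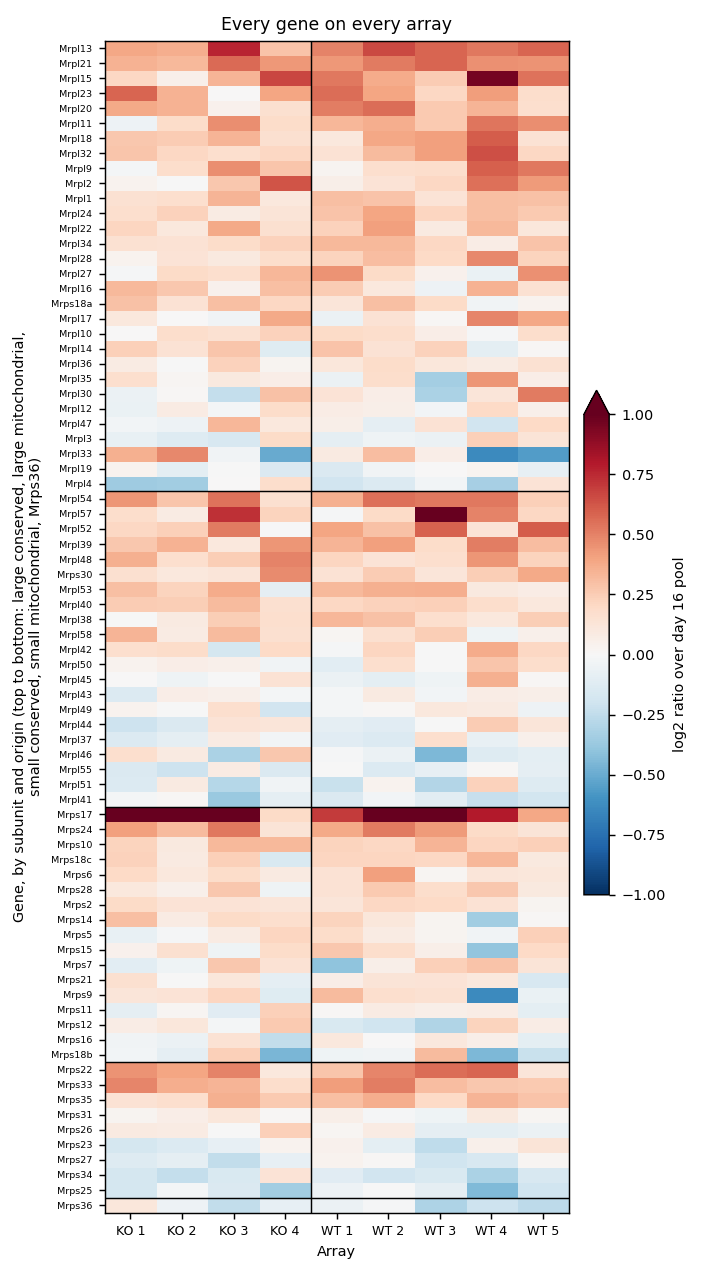
Log2 ratio over the pool of the 78 genes (rows, grouped by subunit and descent) on the KO arrays and then the WT arrays (columns). Red is above and blue below the pool; genes are ordered within a class by mean, colours stop at -1 and 1, and Mrps17 passes 1 on KO 1, KO 2, KO 3, WT 2 and WT 3.

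Set against the pool, 25 of the 78 genes were called higher in WT and 6 in KO, and none was called lower in either. This comparison changes SmoA1, age (day 20 against day 16) and dye at once, and on the KO arrays Pycard too. These cannot be told apart, and the comparison leaves out the pool's own spread. In KO, 6 of the 78 genes (7.69%) were called higher, against 4.28% of all values, and 0 were called lower, against 3.35%. In WT, 25 of the 78 (32.1%) were called higher, against 12.9% of all values, and 0 lower, against 12.1%. At the level of array signs, 25 genes (32.1%) were above 0 on all 9 arrays, as were 11.1% of all values. A single gene, Mrps25, was below 0 on all 9 arrays as an average of 2 features (1.28%), as were 10% of all values. The median of the genes' 9-array means was 0.14, with quartiles of 0.02 and 0.25. Over all values the median was 0.008, with quartiles of -0.24 and 0.26. The counts in KO and WT rest on 4 and 5 arrays and the difference between them was not tested. The KO count was sensitive to the processing, from 1 to 24 genes over the settings tried, and fell to 1 without KO 1, KO 2 or KO 3. The WT count fell to 16 without WT 2.

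The genes called higher in both genotypes were Mrpl13, Mrpl21, Mrpl54, Mrps33, Mrpl48 and Mrpl40. Mrpl21, a conserved protein of the large subunit, had 0.35, 0.33, 0.56 and 0.44 in KO, against 0.43, 0.52, 0.58, 0.46 and 0.45 in WT. All 9 values were above 0, with limma adjusted p = 0.00992 in KO and 0.00077 in WT. Mrpl13, homologous to a bacterial protein that joins the ribosome early in its assembly, had 0.39, 0.36, 0.76 and 0.29 in KO, against 0.50, 0.66, 0.58, 0.52 and 0.58 in WT. Its call in KO (limma adjusted p = 0.0187) was lost without KO 1, KO 2 or KO 3 (adjusted p between 0.0522 and 0.073). Mrpl54, a mitochondrial addition, had 0.44, 0.28, 0.54 and 0.16 in KO, against 0.35, 0.55, 0.53, 0.53 and 0.24 in WT. It was just inside the threshold in KO (limma adjusted p = 0.045), and the call was lost without any 1 of the 4 KO arrays and without WT 1, WT 2 or WT 3 (adjusted p between 0.0545 and 0.168). Mrps33 averaged 0.34 ± 0.13 in KO and 0.36 ± 0.11 in WT. Mrpl48 averaged 0.32 ± 0.14 in KO and 0.24 ± 0.12 in WT, and Mrpl40 averaged 0.24 ± 0.06 in KO and 0.19 ± 0.06 in WT.

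The other 19 genes called higher in WT came from both subunits. They were Mrpl1, Mrpl11, Mrpl15, Mrpl18, Mrpl20, Mrpl22, Mrpl23, Mrpl24, Mrpl28, Mrpl32, Mrpl34, Mrpl38, Mrpl39, Mrpl52, Mrps10, Mrps17, Mrps22, Mrps24 and Mrps35. Among all 25, 13 were conserved large-subunit proteins (of 30), 6 mitochondrial additions to the large subunit (of 21), 3 conserved small-subunit proteins (of 17) and 3 additions to the small subunit (of 9). Mrpl22 and Mrpl23, homologs of proteins that line or rim the exit tunnel, averaged 0.22 ± 0.12 and 0.33 ± 0.24 in KO, and 0.23 ± 0.14 and 0.35 ± 0.16 in WT. Their means in KO and WT were close although only the WT mean was called. Mrps22, a mitochondrial addition to the small subunit, had 0.45, 0.39, 0.49 and 0.10 in KO, against 0.28, 0.49, 0.56, 0.58 and 0.12 in WT. It was called in WT (limma adjusted p = 0.0128) and not in KO (adjusted p = 0.0687).

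At the low end of the order stood Mrps27, Mrpl4, Mrpl41, Mrps36, Mrps34 and Mrps25, none of them called in either genotype. Mrps25 had -0.18, -0.02, -0.14 and -0.35 in KO, against -0.05, -0.0015, -0.09, -0.44 and -0.20 in WT, each below 0. Neither of its 2 features was below 0 on every array, since they reached 0.16 on WT 2 and 0.36 on WT 4. Mrps34, another mitochondrial addition to the small subunit, averaged -0.11 ± 0.17 in KO and -0.19 ± 0.08 in WT. WT was close to the threshold (limma adjusted p = 0.0836), and it passed without KO 4 (adjusted p = 0.0495). Mrps27, which carries pentatricopeptide repeats known to bind RNA, averaged -0.13 ± 0.08 in KO and -0.06 ± 0.11 in WT. Mrpl4, whose bacterial relative reaches into the exit tunnel, ran from -0.35 to 0.17 in KO and from -0.34 to 0.14 in WT.

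Some gene averages hid features that went apart. Mrps17, the highest of the 78 genes with a mean of 1.01 ± 0.56 in KO and 0.98 ± 0.59 in WT, had 2 features annotated to the same transcript. The first had 2.45, 2.14, 2.72 and 0.32 in KO, against 1.16, 1.98, 3.64, 1.24 and 0.45 in WT. The second had -0.02, 0.12, 0.25 and 0.06 in KO, against 0.24, 0.26, 0.21, 0.34 and 0.33 in WT. The top rank of Mrps17 thus rests on a single feature, and its call in WT (limma adjusted p = 0.0184) was lost without WT 2 (adjusted p = 0.0571). Among the 3 features of Mrps18b, the lowest had -2.11 on KO 4, against -2.50 on WT 4 and -0.92 on WT 5, and lay between -0.49 and 0.50 on the letter-titled arrays. The feature means of Mrps18b over 9 arrays ran from -0.70 to 0.42. One feature of Mrpl57 was far above the others on KO 3 at 1.21 and on WT 3 at 2.12. Mrpl15, called in WT as an average (limma adjusted p = 0.012), had feature means of 0.18 and 0.69 over the 9 arrays. Of these the higher feature was called in WT (adjusted p = 0.00969) and the lower was not (adjusted p = 0.171). Mrpl11, also called in WT, had a feature called there (limma adjusted p = 0.00369) and a feature not called (adjusted p = 0.312). Mrpl38 likewise had a called feature (adjusted p = 0.00352) and features not called (adjusted p = 0.123 and 0.705). Between KO and WT, no feature of the 132 was called and none reached an unadjusted p under 0.05.

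**Figure D4:**
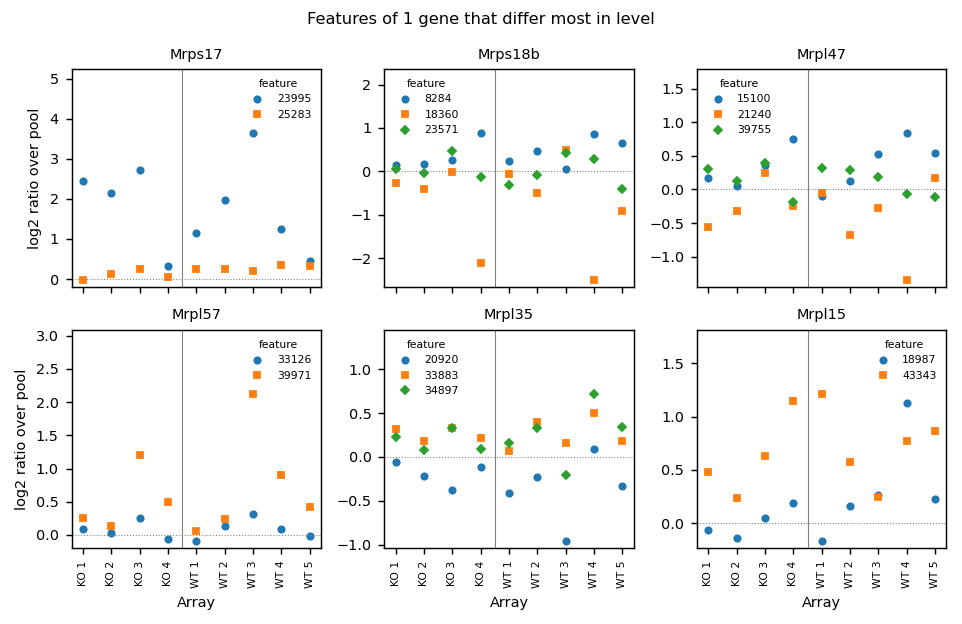
Log2 ratios over the pool of each feature (1 colour and shape per feature) of the 6 genes whose features disagree most, KO arrays left of WT arrays. The features of Mrps17 lie more than 1 apart on 5 of the 9 arrays, and the lowest feature of Mrps18b drops below -2 on KO 4 and WT 4.

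Several genes moved with the style of the titles. For 9 of the 78 genes (11.5%) every number-titled array lay below every letter-titled array, against 11.4% of all values, and for 5 (6.41%) every one lay above, against 7.79%. These shares are close to the background, which is itself high. The split by genotype, with other group sizes, stood fully apart for 0.946% (KO lower) and 0.796% (KO higher) of all values. Mrpl33, a gene chosen here after its values were seen, had -0.51 on KO 4, against -0.64 on WT 4 and -0.56 on WT 5, while the letter-titled arrays had -0.03 to 0.48 in KO and 0.06 to 0.30 in WT. Its KO minus WT difference was 0.12 within letter-titled arrays and 0.10 within number-titled arrays. Across the 78 genes, the difference had the same sign within both styles for 49.

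The wider machinery of mitochondrial translation likewise held no gene called between KO and WT. Of 4 mitochondrial ribosomal proteins measured under other symbols, 3 were lower and 1 higher in KO, with a mean of 0.06 ± 0.10 in KO and 0.17 ± 0.09 in WT. Of 27 measured assembly factors, 16 were lower and 11 higher, at 0.03 ± 0.05 in KO and 0.05 ± 0.04 in WT. Lrpprc, which stabilises mitochondrial messenger RNAs, was the lowest of these at -0.51 in KO and -0.45 in WT, called lower than the pool in both (limma adjusted p = 0.0405 and 0.0173). The 14 translation factors averaged -0.0034 ± 0.029 in KO and 0.014 ± 0.059 in WT, and the 19 aminoacyl-tRNA synthetases and related enzymes 0.05 ± 0.03 in KO and 0.03 ± 0.13 in WT. The single members called higher than the pool in KO were Mtfmt, which formylates the initiator tRNA, and Hars2, the histidine enzyme. In WT, 1 translation factor and 3 genes of the synthetase list were called higher. Hars2 was among them (limma adjusted p = 0.0364), and Mtfmt was just outside the threshold (adjusted p = 0.052). Over all values, 4.28% were called higher in KO and 12.9% in WT.

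For the 20 measured genes of mitochondrial DNA upkeep and expression the mean was 0.07 ± 0.06 in KO and 0.17 ± 0.13 in WT, with 14 lower and 6 higher in KO. Mgme1, an exonuclease of mitochondrial DNA, was the only one of the list whose groups did not overlap, with a difference of -0.40 (unadjusted p = 0.00976, limma adjusted p = 0.917). The 11 regulators of mitochondrial biogenesis averaged 0.07 ± 0.16 in KO and 0.27 ± 0.09 in WT, with 6 lower and 5 higher in KO. Ppargc1b and Ppargc1a, coactivators of the PGC1 family, were called lower than the pool in both genotypes. Ppargc1b was at -0.84 in KO and -0.89 in WT, and Ppargc1a at -0.39 in KO and -0.68 in WT. Ppargc1a was higher in KO than in WT by 0.29 (unadjusted p = 0.0514, limma adjusted p = 0.917). Mycn, a driver of progenitor growth that is also in the progenitor list below, had a difference of -1.17 with no overlap (unadjusted p = 0.0118, limma adjusted p = 0.917). It was the highest of the 11 regulators, at 1.77 in KO and 2.94 in WT. The position of the list means above the pool thus rests on Mycn.

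Markers of dividing cells were set beside the ribosomal genes. The 19 measured proliferation genes averaged 0.82, 2.26, 2.66 and 1.64 on KO 1 to KO 4, against 2.62, 2.95, 2.83, 3.44 and 3.03 on WT 1 to WT 5. KO 3 lay within the WT range and the other KO arrays below it. All 19 genes had a difference below 0, against 47.8% of all values, and none was called. An unadjusted limma p under 0.05 was reached by 17 of them, against 5.4% of all values. For 7 of them every KO array lay below every WT array, against 0.946% of all values. The mitochondrial ribosomal means of KO 1 to KO 4, in the same order, were 0.13, 0.11, 0.17 and 0.12, against 0.14, 0.19, 0.15, 0.16 and 0.13 on WT 1 to WT 5. The array lowest in proliferation genes was KO 1 and the highest WT 4, while the array lowest in the ribosomal mean was KO 2 and the highest WT 2. Over the large subunit alone the highest array was WT 4 (0.23). Over the small subunit alone the highest was KO 3 (0.19) and the lowest WT 4 (0.05). Whether the ribosomal means follow the proliferation genes was not tested. The 12 granule progenitor genes averaged 0.96 ± 0.53 in KO and 1.74 ± 0.29 in WT, each lower in KO. None of the 12 was called, and 7 had an unadjusted limma p under 0.05.

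Marker lists of other cell types gave the following values. The 10 measured microglial and macrophage genes all had lower means in KO, ranging over arrays from -0.24 to 0.94 in KO and from 0.64 to 1.14 in WT. The oligodendrocyte genes were higher in KO for 10 of 11 (-0.79 ± 0.13 in KO, -1.19 ± 0.14 in WT), the mature granule neuron genes for 11 of 12 (-0.29 ± 0.22 in KO, -0.49 ± 0.16 in WT), the astrocyte genes for 8 of 12 (-0.30 ± 0.09 in KO, -0.50 ± 0.14 in WT) and the endothelial genes for 12 of 12 (-0.22 ± 0.04 in KO, -0.36 ± 0.08 in WT). None of these marker genes was called between KO and WT. An unadjusted limma p under 0.05 was reached by 7 oligodendrocyte, 6 astrocyte and 2 microglial genes, against 5.4% of all values. No mature granule neuron or endothelial gene reached it. The part of these marker genes in the values of the ribosomal genes was not tested.

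**Figure D5:**
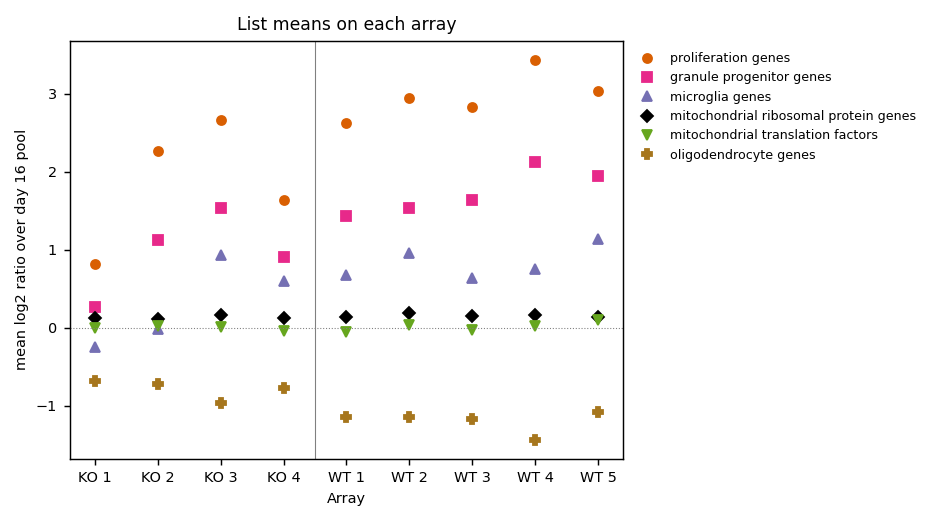
Mean log2 ratio over the pool per array for the 78 mitochondrial ribosomal protein genes and 5 comparison lists, KO arrays left of WT arrays. The proliferation list spans 0.82 to 2.66 in KO and 2.62 to 3.44 in WT, while the ribosomal mean stays between 0.11 and 0.19.

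The 78 genes are spread over the genome, and 6 of them share chromosome 7 with Pycard. In the order of measured genes along that chromosome, the nearest, Mrpl23, lay 178 genes away and the farthest, Mrps12, 1034 away. The differences of these 6 ran from -0.08 for Mrpl17 to 0.20 for Mrpl46. Mrps11 and Mrpl46 are neighbours that start 42 bases apart and run in opposite directions, so they share an upstream region. Mrps11 had -0.09, 0.02, -0.11 and 0.24 in KO, against 0.01, 0.08, 0.06, 0.07 and -0.10 in WT. Mrpl46 had 0.17, 0.09, -0.31 and 0.27 in KO, against -0.01, -0.06, -0.45, -0.13 and -0.10 in WT. KO 3 was the lowest KO array for both genes, while WT 3 was the lowest WT array for Mrpl46 only.

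Promoter sequences of RefSeq (GRCm38.p6, 250 bases before to 50 after the start) were found for 69 of the 78 genes and searched on both strands. The motif of ETS factors such as GABP, searched as CCGGAAG, occurred in 26 of the 69 (37.7%), in 14.1% of all measured genes and in 9.93% of the 27025 genes in the table. The motif of YY1, searched as AAGATGGC, occurred in 12 (17.4%), in 3.96% of measured genes and in 3.19% of all genes. The palindromic motif of NRF1, whose 10 letters stand in capitals in the last set of sequences printed here, occurred in 3 (4.35%), in 1.59% of measured genes and in 1.07% of all. For the E-box CACGTG the shares were 7.25% (5 genes), 9.66% and 8.09%. The motifs do not contain one another, 3 of the genes had both the ETS and the YY1 letters, and 37 had any of the ETS, YY1 and NRF1 letters. Among the genes higher than the pool in WT, 8 of 20 (40%) had the ETS letters, against 18 of the other 49 (36.7%). These shares describe letters in the windows, not binding.

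The stretches upstream of 5 genes called higher than the pool in WT are shown from 80 bases before the start to the base before it, with the ETS letters on either strand in capitals. They lie at chr11:58171584-58171663 (+ strand) for Mrpl22, chr8:71464846-71464925 (+) for Mrpl34, chr7:100583131-100583210 (- strand) for Mrpl48, chr14:54426829-54426908 (+) for Mrpl52 and chr9:98601680-98601759 (-) for Mrps22.
Mrpl22: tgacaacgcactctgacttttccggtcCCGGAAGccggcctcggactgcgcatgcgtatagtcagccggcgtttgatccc
Mrpl34: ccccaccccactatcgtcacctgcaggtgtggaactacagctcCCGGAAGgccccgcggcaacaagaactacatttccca
Mrpl48: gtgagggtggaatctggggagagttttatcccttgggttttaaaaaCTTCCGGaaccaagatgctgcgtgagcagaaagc
Mrpl52: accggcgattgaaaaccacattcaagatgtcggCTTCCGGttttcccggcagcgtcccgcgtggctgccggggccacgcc
Mrps22: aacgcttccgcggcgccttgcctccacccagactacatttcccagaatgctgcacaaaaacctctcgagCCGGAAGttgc

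The same letters stood upstream of genes whose averages were near the level of the pool. Mrpl3 (chr9:105053188-105053267, +) averaged -0.04 in KO and 0.04 in WT, and Mrpl43 (chr19:45006443-45006522, -) averaged -0.01 in KO and 0.03 in WT and holds the letters at 2 places. The 4 features of Mrpl3 did not agree, with means over the 9 arrays from -0.20 to 0.26. Its highest feature was called higher than the pool in WT (limma adjusted p = 0.0129).
Mrpl3: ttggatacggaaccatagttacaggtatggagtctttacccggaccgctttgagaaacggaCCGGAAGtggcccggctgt
Mrpl43: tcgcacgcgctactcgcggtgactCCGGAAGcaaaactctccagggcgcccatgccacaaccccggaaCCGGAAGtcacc

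The 3 genes with the palindromic NRF1 letters, in capitals, were Mrpl32 (chr13:14613090-14613149, -), Mrpl39 (chr16:84735335-84735394, -) and Mrpl9 (chr3:94443283-94443335, +). Mrpl32 and Mrpl39 were called higher than the pool in WT (limma adjusted p = 0.0131 and 0.00832), and Mrpl9, at -0.02, 0.17, 0.46 and 0.27 in KO, against 0.03, 0.17, 0.17, 0.60 and 0.53 in WT, was not.
Mrpl32: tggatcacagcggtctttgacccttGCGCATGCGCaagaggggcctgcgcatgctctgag
Mrpl39: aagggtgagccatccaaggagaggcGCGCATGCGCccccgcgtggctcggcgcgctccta
Mrpl9: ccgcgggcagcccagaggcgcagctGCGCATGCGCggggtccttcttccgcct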

How the data were processed

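Total RNA extracted with Trizol was labelled with a 2-colour amplification kit, per the labels' protocols. The deposited table holds the authors' log2 ratios of sample (Cy5) over pool (Cy3), 1 per feature and array. They were made with Agilent Feature Extraction, per the submitters' processing notes. Nothing in the sources used here gives its version, background correction or dye normalization. The log2 base was read from the values, of which 20 to 280 per array exceed 4.82, the largest log10 ratio of 16-bit signals. No intensities come with the ratios, so dim or saturated spots could not be left out, and the number of arrays limits the precision.

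Of 45220 features, the platform annotation gives 33653 a single symbol, 56 several and 11511 none. Features were averaged per symbol and unnamed ones kept singly, giving 30654 values per array. One feature carrying the symbols of Mrps25 and another gene was left out. limma 3.58.1 (R 4.3.3) was fitted to all 9 arrays with 1 mean per genotype, testing KO against WT and each mean against 0, two-sided, with Benjamini-Hochberg adjustment over all values and a threshold of 0.05. The fit was tested on simulated data.

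The genes and lists were chosen with earlier results of these data known. Genes were named by role, by smallest p or lack of overlap between KO and WT (up to 5 each way), by the 6 highest and 6 lowest means over 9 arrays and, in the pathway lists, by smallest p and extreme means. The other genes called against the pool are named because they make up a count, and those printed for feature disagreement, position or promoter letters were picked after their values were seen. KO and WT arrays with the same replicate number in the labels deviated from their group means together (correlations over values of 0.24, 0.25, 0.45 and 0.30), although KO 2 correlated best with WT 1. Every such correlation exceeded 0.1, the rule set for treating the numbers as pairs. This pairing was used only in the blocked alternative, and the main tests, SEs and intervals are unpaired. Arrays with the same number also share a title style, so the rule does not show that the numbers mark pairs. No 2 arrays were alike enough to be 1 sample deposited again.

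The alternatives left out each array, normalized by quantiles or scale, centred medians, used single features, took zeros as missing, weighted arrays, used a trended robust prior, blocked on replicate number or title style and used each title style alone.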

Additional observations from a re-analysis of the deposited data

Results flagged for a closer look

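In 7 of 118 groups examined, the highest or lowest array of a genotype lay far from the others by Dixon's criterion at 95%. Chance gives about 1 in 20 such groups. Among the ribosomal protein genes these were Mrps30 on KO 4, at 0.47 against 0.11 to 0.16 on the other KO arrays, Mrpl45 on WT 4, at 0.36 against -0.10 to 0.02 on the other WT arrays, and Mrpl46 on WT 3, at -0.45 against -0.13 to -0.01.

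Among the genes of the translation pathway, the assembly factor Mpv17l2 had 0.32 on KO 3, against 0.11 to 0.12 on the other KO arrays. The coactivator Ppargc1b had -0.999 on KO 4, against -0.80 to -0.78 on the other KO arrays. The ribosomal protein gene Gadd45gip1 had 0.11 on WT 5, against 0.43 to 0.53 on the other WT arrays, and the exonuclease gene Mgme1 had 0.80 on WT 4, against 0.36 to 0.43.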

How the results depend on the processing

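The number of mitochondrial ribosomal protein genes called between KO and WT was 0 under every alternative run. Over 36 named members and 20 settings, the KO minus WT difference was never called and kept its sign throughout for 15 members. Blocking on the replicate number, which pairs the arrays, took the count of all values called from 5 to 0. Pycard then differed by -3.41 (adjusted p = 0.751), against -3.47 without the block, and the block changed no other call between KO and WT among the named ribosomal protein genes. That count was 3 with quantile and 3 with scale normalization, 0 in letter-titled arrays alone, 0 in number-titled arrays alone, and 1 to 6 without single arrays. The mean difference over the genes was 0.0044 with quantile and 0.0078 with scale normalization, -0.046 with array weights, and -0.033 to -0.012 without single arrays.

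Against the pool, the count higher in KO (6) was 12 with quantile and 15 with scale normalization, 3 with centred medians, 2 with zeros as missing, 24 with array weights, 1 with a trended robust prior, and 1 to 8 without single arrays. The share of all values called higher in KO moved too, to 7.76% with quantile normalization, 14.2% with array weights and 2.17% with the trended prior. The count lower in KO (0) was 3 with array weights and 0 without any single array. The count higher in WT (25) was 38 of 132 single features and 16 to 27 without single arrays, with 16 in the absence of WT 2. The count lower in WT (0) was 2 among single features, 1 with array weights, and 0 to 1 without single arrays. The causes were not tested. Without signal intensities, weak spots cannot be told from strong ones.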
